A study of Rattus norvegicus with 35 samples.

Results

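The 10 genes described here mark the endothelium of the liver, and were chosen with earlier results of these data known. Stab2, Stab1, Lyve1, Fcgr2b and Flt4 were taken as genes of sinusoidal endothelium, and Kdr, Tek, Ptprb, Pecam1 and S1pr1 as genes of vascular endothelium in general. They are 10 of the 14217 genes that the arrays could name, measured by 14 of 31042 probe sets. The samples were livers of 35 male Harlan Sprague Dawley rats (strain label Sprague Dawley), 7 weeks of age when dosing began, with no genetic change named. The test compound, 1,2-bis(2,4,6-tribromophenoxy)ethane (BTBPE), belongs to the brominated flame retardants and was given by gavage in corn oil, 5 ml per kg of body weight, on 5 consecutive days. Vehicle rats (n = 6) received corn oil alone, and the other groups received 0.07, 0.69, 6.88 or 680 mg/kg (n = 6 each) or 68 mg/kg (n = 5). The left lobe was taken the day after the last dose, and 1 Affymetrix rat array was hybridised per rat, from RNA whose integrity number reached 7.0 or more.

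Liver sinusoids are lined by a fenestrated endothelium without a complete basement membrane, which clears waste molecules and immune complexes from portal blood by endocytosis. Its scavenger receptors are typical of sinusoidal and lymphatic endothelium but not confined to it, since macrophages express some of them. The VEGF, angiopoietin and sphingosine 1-phosphate receptors are shared by most vessels. These receptor systems govern the growth, permeability and quiescence of the vessel wall.

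The upstream sequences of 4 of these genes are shown because Kdr, Stab2 and Lyve1 varied together from rat to rat while S1pr1 mostly did not, as described below. Of the 10 genes 6 (Stab2, Stab1, Flt4, Lyve1, Kdr and S1pr1) were matched to a RefSeq sequence of build GRCr8, and the sequences of Fcgr2b, Ptprb, Pecam1 and Tek were not used here. Each line gives the 250 bases before the annotated start of the gene, 5′ to 3′ on the gene's own strand. They lie at chr14:32571813-32572062 on the plus strand for Kdr, and on the minus strand at chr7:23320563-23320812 for Stab2, chr1:174410978-174411227 for Lyve1 and chr2:206314071-206314320 for S1pr1. Capitals mark a match to the letters GGAAGT, searched for ETS factors, which read ACTTCC on the strand shown.
Kdr: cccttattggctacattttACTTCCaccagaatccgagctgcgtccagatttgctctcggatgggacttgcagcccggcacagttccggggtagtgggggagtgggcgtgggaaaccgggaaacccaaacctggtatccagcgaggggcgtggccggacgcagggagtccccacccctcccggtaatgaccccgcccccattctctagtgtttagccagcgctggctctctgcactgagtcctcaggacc
Stab2: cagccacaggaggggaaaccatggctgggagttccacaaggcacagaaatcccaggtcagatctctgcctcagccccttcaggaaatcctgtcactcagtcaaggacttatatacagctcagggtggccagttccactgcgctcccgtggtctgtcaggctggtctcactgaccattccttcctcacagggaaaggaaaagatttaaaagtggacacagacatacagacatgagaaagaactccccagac
Lyve1: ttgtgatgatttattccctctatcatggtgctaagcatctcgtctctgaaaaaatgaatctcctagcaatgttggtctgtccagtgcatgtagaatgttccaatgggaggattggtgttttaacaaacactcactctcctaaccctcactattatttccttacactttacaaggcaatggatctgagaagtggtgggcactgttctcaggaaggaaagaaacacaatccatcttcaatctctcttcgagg
S1pr1: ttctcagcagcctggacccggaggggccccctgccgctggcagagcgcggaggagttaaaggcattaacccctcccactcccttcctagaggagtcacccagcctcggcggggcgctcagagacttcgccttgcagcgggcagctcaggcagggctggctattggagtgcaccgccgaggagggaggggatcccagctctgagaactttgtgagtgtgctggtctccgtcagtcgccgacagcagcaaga
Both strands of all 6 sequences were searched for 4 motifs of factors known from endothelial genes. The letters GGAAGT for ETS factors were found only in Kdr, beginning at base -231 counted from the start. They occur in 19.2% of 33469 promoters of the same length. Shorter ETS letters were not searched for, and GGAA or its reverse complement TTCC also stands in the Stab2, Lyve1 and S1pr1 sequences shown. The letters AGATAA for GATA factors, TGTTTAC for forkhead factors and ATTGTT for SOX factors were in 0 of the 6, against 10.3%, 3.21% and 10.3% of all promoters. A match is a description of the sequence, and its absence says only that these letters are not in this window.

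The series asked whether BTBPE altered liver transcripts relative to vehicle, and here each dose was compared with the same 6 vehicle rats. None of the endothelial genes passed the test at any dose. At 0.07, 0.69, 6.88 and 68 mg/kg most of them lay slightly below vehicle, and at 680 mg/kg most lay slightly above it. The mean of S1pr1 was above vehicle at all 5 doses, by 1.10-fold to 1.24-fold. The fold of the other genes ran from 0.846 to 1.06, leaving out Flt4, whose signal was too dim for a fold.

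Values are log2 RMA expression per probe set, where a step of 1 is a doubling, and the test was limma's moderated test with Benjamini-Hochberg adjustment over 31042 probe sets at a threshold of 0.05. limma called 0 of the 10 genes at each dose, and 0% of all probe sets at each dose. At an unadjusted p under 0.05 it had 3 of the 10 at 0.07 mg/kg, 1 at 0.69, 0 at 6.88, 2 at 68 and 1 at 680 mg/kg, where all probe sets gave 3.64%, 3.16%, 4.63%, 3.88% and 4.95%. An unmoderated analysis of variance also called 0 of all probe sets at every dose, with the smallest adjusted p over the 50 values of genes and doses at 0.988 in limma. The 95% interval of 43 of these 50 values included no change, and the outermost bounds were 0.690-fold and 1.37-fold.

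The number of genes with a mean below vehicle was 9 of 10 at 0.07 mg/kg, 8 at 0.69, 8 at 6.88, 9 at 68 and 3 at 680 mg/kg. Over all probe sets the share below vehicle was 50.5%, 51.3%, 51.3%, 51.1% and 51.7%. The median log2 difference of the 10 genes was -0.11, -0.05, -0.12, -0.11 and 0.04 in the same order, while that of all probe sets lay between -0.0035 and -0.0010. These comparisons share their vehicle rats, so a like direction at several doses is not separate evidence. Most of the genes also varied together from rat to rat, as described below, so they are not separate observations. Re-normalising the arrays turned the sign of 3 differences, all within 0.01 of no change: Kdr at 0.69 mg/kg and Flt4 at 6.88 mg/kg after a second quantile normalisation, and Kdr at 680 mg/kg after median centring.

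**Figure D1:**
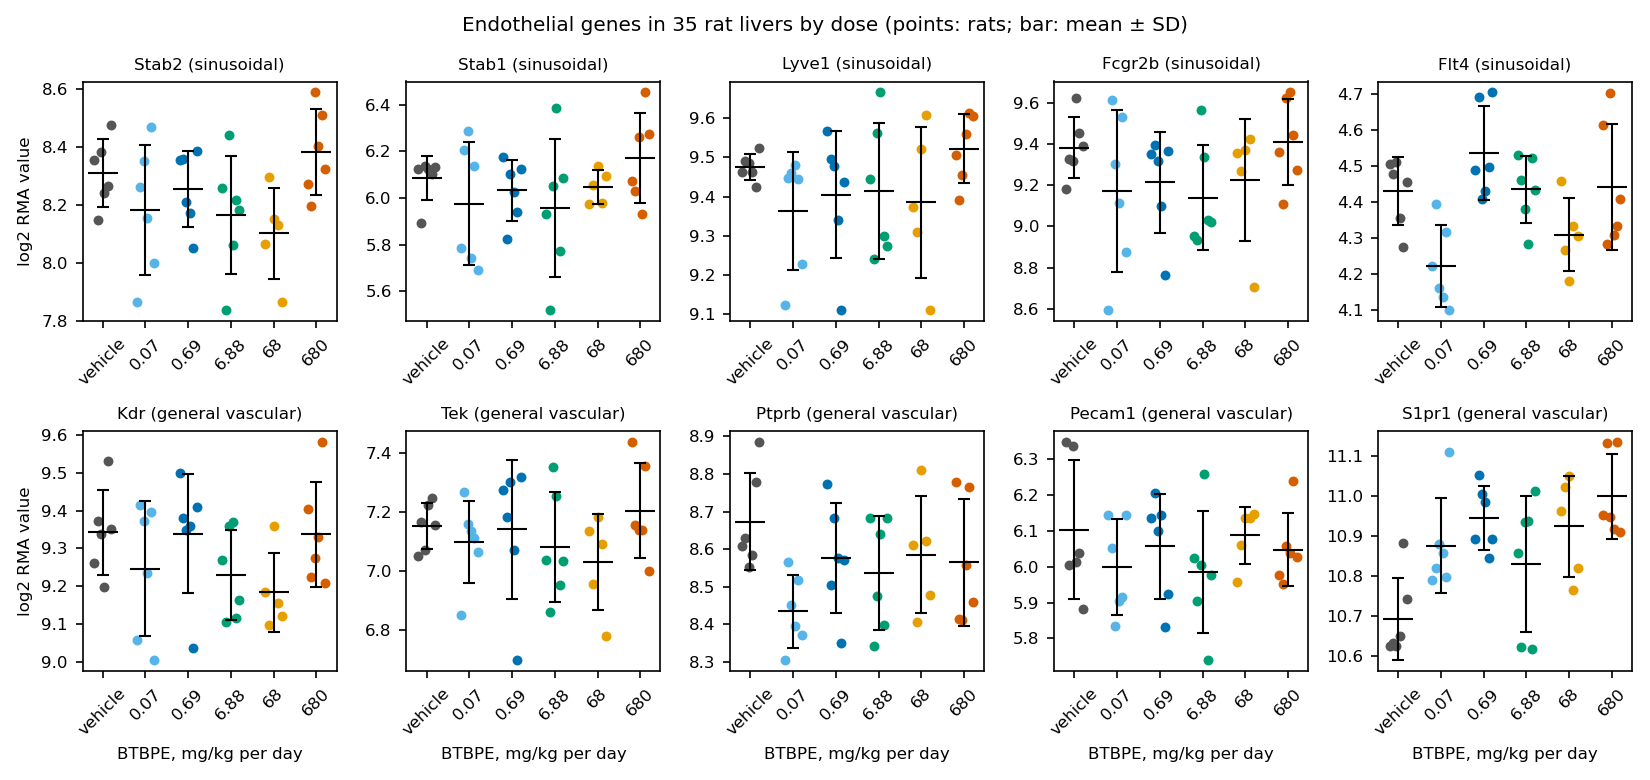
Log2 RMA value of each of the 10 endothelial genes (vertical axes, 1 panel per gene, each with its own scale) in vehicle rats and at 5 doses of BTBPE in mg/kg per day (horizontal axes). Points are rats and bars are mean ± SD, n = 6 per group and 5 at 68 mg/kg. The 680 mg/kg points of S1pr1 (10.91 to 11.14) lie above all its vehicle points (10.62 to 10.88), and in the other 9 panels every dose group overlaps vehicle.

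The whole table bears on these values in 3 ways. Array medians lay between 4.71 and 4.79, and a level below 4.71 is not shown to be above background, which applies to Flt4 and to the dimmer probe sets of Kdr and S1pr1. The difference between the beta-actin control probe sets at the 3′ and the 5′ end of the transcript, larger where less full-length RNA was amplified, ran from 1.02 to 1.37 and had its highest group mean at 6.88 mg/kg (1.23 ± 0.09, SD, n = 6) against 1.12 ± 0.08 in vehicle (n = 6). Of 12 measured hepatocyte genes 0 were dim, and Alb had a mean of 14.38 in vehicle rats and 14.39 at 680 mg/kg. These means lie close to the highest value on any array, 14.44, where a difference may not show. The tissue was whole liver, so fewer endothelial cells and less RNA of a gene per endothelial cell cannot be told apart. Each labelled replicate was counted as 1 rat, and the p-values measure the spread between these samples.

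Among the scavenger receptors, Stab2, the hyaluronan clearance receptor stabilin-2, was 8.15 in the lowest vehicle rat, 8.31 at the median and 8.47 in the highest. At 68 mg/kg its 5 rats were at 8.07, 8.30, 8.15, 8.13 and 7.87, all below the vehicle mean of 8.31 and overlapping the vehicle range. The fold at 68 mg/kg was 0.865 (95% interval 0.753 to 0.994, limma adjusted p = 0.999). At 680 mg/kg the rats ran from 8.20 over a median of 8.36 to 8.59, again overlapping vehicle, with a fold of 1.05 (0.921 to 1.20). Stab1, which encodes the related stabilin-1, was 6.08 ± 0.10 (SD, n = 6) in vehicle and had dose means from 5.96 at 6.88 mg/kg to 6.17 at 680 mg/kg. Its 0.07 and 6.88 mg/kg groups were spread more widely, with SDs of 0.26 and 0.30, and their rats lay on both sides of the vehicle mean.

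Lyve1, a hyaluronan receptor of sinusoidal and lymphatic endothelium, had the narrowest vehicle group of the 10 genes, 9.47 ± 0.03 (SD, n = 6), with a lowest value of 9.42 and a highest of 9.52. In each dosed group at least 1 rat lay below that range, down to 9.11 at 0.69 and at 68 mg/kg, and the group means of 9.36 to 9.52 stayed within 0.11 of vehicle. Its other probe set had the same sign at every dose. Fcgr2b, the inhibitory Fc receptor with which sinusoidal endothelium takes up small immune complexes, was 9.38 ± 0.15 in vehicle (n = 6). Its means were 9.17 at 0.07 mg/kg, 9.21 at 0.69, 9.14 at 6.88, 9.22 at 68 and 9.41 at 680 mg/kg. The lowest fold was 0.846 at 6.88 mg/kg, with an interval from 0.690 to 1.04, and its standard error was the largest of the 10 genes at each dose.

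Flt4, the VEGF receptor best known from lymphatic vessels, lay under the lowest array median in every rat, so values are given without a fold. Vehicle rats ran from 4.28 over a median of 4.47 to 4.51. At 0.07 mg/kg they ran from 4.10 over 4.19 to 4.39, and at 0.69 mg/kg from 4.41 over 4.49 to 4.70. The 0.07 mg/kg group was the low one and overlapped vehicle. The moderated F test over the 5 doses gave Flt4 an unadjusted p of 0.0020, and S1pr1 one of 0.00258, so 2 of the 10 genes were under 0.05 against 3.85% of all probe sets. After adjustment limma's F test called 0 of the 10 and 0% of probe sets.

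**Figure D2:**
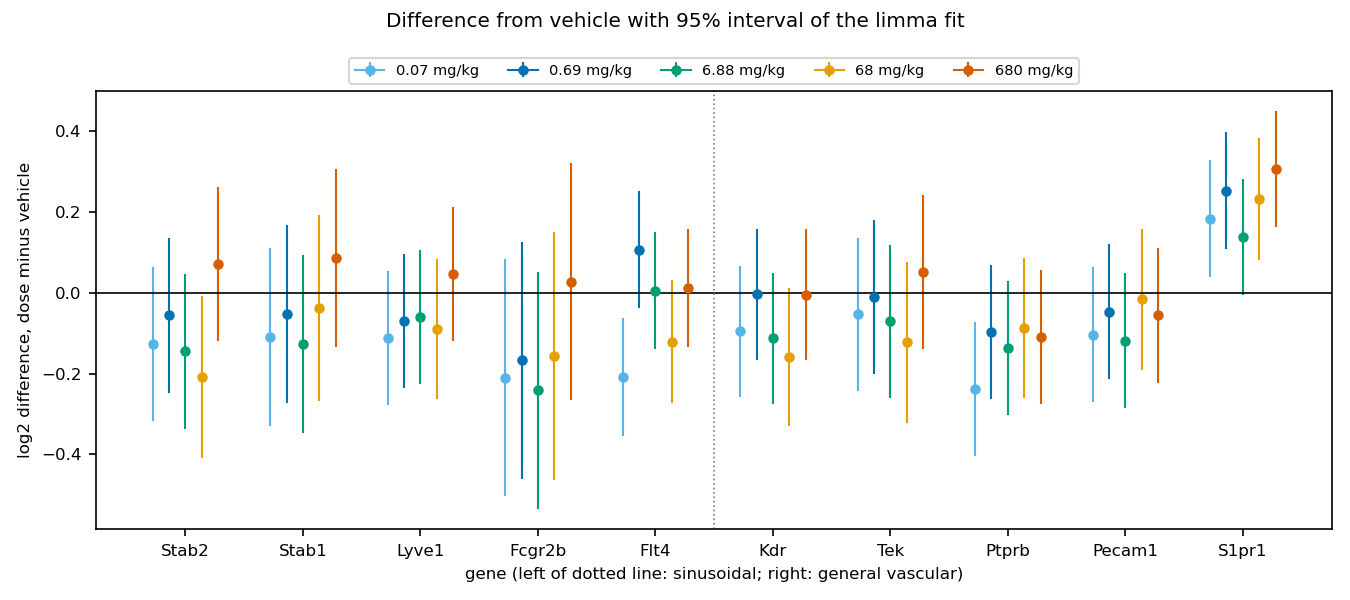
Log2 difference from vehicle (vertical axis) of the 10 endothelial genes (horizontal axis) at 5 doses, each point with its 95% interval from limma. S1pr1 lies above 0 at all 5 doses (0.14 to 0.31), and the 5 sinusoidal genes left of the dotted line lie above 0 together only at 680 mg/kg (0.01 to 0.09). Flt4 is plotted although its level is not shown to be above background.

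Among receptors of the vessel wall, Kdr, the main signalling receptor for VEGF-A, was 9.20 in the lowest vehicle rat, 9.34 at the median and 9.53 in the highest. At 68 mg/kg its rats were at 9.18, 9.10, 9.36, 9.16 and 9.12. That group was low apart from 1 rat and overlapped vehicle, with a fold of 0.896 (0.796 to 1.01). At 680 mg/kg the mean was 9.34, as in vehicle, and the fold was 0.997 (0.891 to 1.12). Tek, the angiopoietin receptor Tie2, was 7.15 ± 0.08 (SD, n = 6) in vehicle and between 7.03 at 68 mg/kg and 7.20 at 680 mg/kg in the dosed groups.

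Ptprb, the endothelial phosphatase that acts on Tek and Kdr, had vehicle rats from 8.55 over a median of 8.62 to 8.88. At 0.07 mg/kg its rats ran from 8.30 over 8.42 to 8.57. All 6 of them lay below the vehicle mean of 8.67, and the highest of them overlapped the lowest vehicle rat. The fold was 0.847 (0.755 to 0.95, limma unadjusted p = 0.00599, adjusted p = 1.00), and its mean was below vehicle at all 5 doses, as for 16.1% of probe sets. Kdr and Pecam1 were also below vehicle at all 5 doses, Kdr by log2 differences of only -0.0033 at 0.69 and -0.0046 at 680 mg/kg. The other Ptprb probe set was at -0.01 at 0.07 mg/kg and had the opposite sign at 6.88 and 680 mg/kg. Pecam1, the junctional adhesion molecule CD31, was 6.10 ± 0.19 (SD, n = 6) in vehicle and 5.98 to 6.09 in the dosed groups.

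S1pr1, the receptor through which sphingosine 1-phosphate stabilises endothelial junctions, was 10.62 in the lowest vehicle rat, 10.64 at the median and 10.88 in the highest. At 0.07 mg/kg it ran from 10.79 over 10.84 to 11.11, at 0.69 mg/kg from 10.85 over 10.94 to 11.05, and at 6.88 mg/kg from 10.62 over 10.90 to 11.01. The 68 mg/kg rats were at 10.96, 11.02, 11.05, 10.77 and 10.82, and the 680 mg/kg rats ran from 10.91 over 10.95 to 11.14. Only the 680 mg/kg group lay wholly above vehicle. That made 1 of 10 genes whose groups did not overlap at 680 mg/kg, against 0.187% of all probe sets and 0.0773% wholly above vehicle. At the other doses the count was 0 of 10, against 0.164%, 0.151%, 0.2% and 0.332% of probe sets not overlapping and 0.0677%, 0.0515%, 0.0773% and 0.164% wholly above vehicle.

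The fold of S1pr1 was 1.14 at 0.07 mg/kg, 1.19 at 0.69, 1.10 at 6.88, 1.17 at 68 and 1.24 at 680 mg/kg. At 680 mg/kg the interval was 1.12 to 1.37, and limma's p of 1.24e-04 became 0.988 after adjustment. Over its alternatives the adjusted p at 680 mg/kg ran from 0.575 to 1.00. A mean above vehicle at all 5 doses was shared by 14.3% of probe sets. The trend over dose rank was 0.04 log2 units per step (adjusted p = 0.954 in limma). The trend test called 0 of the 10 genes and 0% of probe sets, and 1 of the 10 against 4.99% of probe sets had an unadjusted p under 0.05. The other S1pr1 probe set, at a mean of 3.15 and not shown to be above background, was below vehicle at every dose, by log2 differences of -0.10, -0.08, -0.02, -0.11 and -0.13.

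Further endothelial genes were read from lists of other sinusoidal genes, other vascular genes, and the ligands and enzymes of these receptors, and limma called 0 of any list at any dose. Beside the counts of each list stand the shares of all probe sets from the lowest to the highest dose. Below vehicle these were 50.5%, 51.3%, 51.3%, 51.1% and 51.7%, and at an unadjusted p under 0.05 they were 3.64%, 3.16%, 4.63%, 3.88% and 4.95%. Of 15 measured sinusoidal genes out of 19 listed, 3 of them dim, 11, 10, 13, 10 and 6 were below vehicle from the lowest to the highest dose. Their median log2 difference was -0.09, -0.03, -0.05, -0.03 and 0.06, and 1, 0, 0, 2 and 2 had an unadjusted p under 0.05. The smallest F test p belonged to Gata4, the transcription factor that maintains sinusoidal identity, and to Gpr182, an atypical chemokine receptor of sinusoids. Gata4 was 6.03 ± 0.19 (SD, n = 6) in vehicle and 6.34 ± 0.11 (n = 6) at 680 mg/kg, with an unadjusted F test p of 0.0131 in limma. Gpr182 was 7.67 ± 0.05 (n = 6) in vehicle and 7.84 ± 0.13 (n = 6) at 680 mg/kg, with 0.0138.

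Of 32 measured vascular genes out of 36, 8 of them dim, 23, 23, 20, 17 and 17 were below vehicle. Their median was -0.04, -0.02, -0.06, -0.0064 and -0.0032, with 1, 2, 1, 1 and 3 at an unadjusted p under 0.05, and the smallest F test p belonged to Ephb4 and Klf2. Ephb4, an ephrin receptor of venous endothelium, was 6.35 ± 0.09 (n = 6) in vehicle and 6.09 ± 0.22 (n = 5) at 68 mg/kg. Klf2, a transcription factor induced by flow, was 7.38 ± 0.09 (n = 6) in vehicle and 7.14 ± 0.07 (n = 6) at 680 mg/kg. Of 18 measured ligands and enzymes out of 21, with 7 dim, 6, 11, 7, 9 and 8 were below vehicle. Their median was 0.03, -0.02, 0.04, 0.0027 and 0.02, with 0, 2, 0, 0 and 2 at an unadjusted p under 0.05. Vegfa, the ligand of Kdr, was 7.84 ± 0.14 (n = 6) in vehicle and 8.08 ± 0.16 (n = 6) at 680 mg/kg. Vegfd, a ligand of Flt4, was 3.48 in vehicle and 3.12 at 0.69 mg/kg, neither shown to be above background.

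Among rats of the same dose most of the endothelial genes varied together. Most pairs among Kdr, Tek, Ptprb, Lyve1, Fcgr2b, Stab2 and Stab1, sinusoidal or general vascular, were positively correlated. The beta-actin difference moved with 6 of these 7 genes, and the share of all probe sets that moved with it is not given here. The 21 pairs called over all rats became 10 with it as a covariate and 2 without the 7 arrays where it was highest. Pecam1 and the dim Flt4 had no positive correlation that passed the test, and S1pr1 had 1, with Tek. For each of the 45 pairs of genes the deviations from the dose mean were correlated over 35 rats, and each r was tested by a two-sided permutation test with 100000 shuffles of rats within dose and adjusted by Benjamini-Hochberg over the 45 pairs. The median r was 0.33, 36 pairs had a positive r and 21 pairs were called, 20 of them positive. Spearman's rho called 18.

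The highest Pearson r belonged to Kdr and Tek (r = 0.768, rho = 0.747, permutation adjusted p = 3.00e-04). It was followed by Fcgr2b and Lyve1 (r = 0.761), Fcgr2b and Tek (0.747), Lyve1 and Tek (0.741), Kdr and Ptprb (0.730), and Stab2 and Fcgr2b (0.711). Each pair was also read without the 2 rats farthest from the median of its first-listed gene, so these rats could differ between pairs. All 6 pairs kept their call, and r was 0.745 for Kdr and Tek. Of the 21 pairs 11 kept their call and 10 lost it, with 2 rats fewer in each. The median r of the 45 pairs was 0.33 with all rats and with 2 fewer in each pair. The negative call was Flt4 with S1pr1 (r = -0.433, permutation adjusted p = 0.0300). Without the 2 rats farthest from the Flt4 median its r was -0.436 with a permutation adjusted p of 0.0534.

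Of the 9 pairs of each gene, 7 were called for Tek, 6 each for Kdr and Lyve1, 5 each for Stab2, Stab1, Fcgr2b and Ptprb, 2 for S1pr1, 1 for Flt4 and 0 for Pecam1. Among the 7 genes other than Flt4, Pecam1 and S1pr1, a subset named after these values were seen, 19 of 21 pairs were called and r ran from 0.327 to 0.768. The pairs were set beside all pairs of 9685 genes at or above the lowest array median. There r was over 0.5 in 2.05% of pairs and over 0.4 in 5.55%, with a median of 0.0234. Of the 45 endothelial pairs 31.1% and 46.7% exceeded these values.

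**Figure D3:**
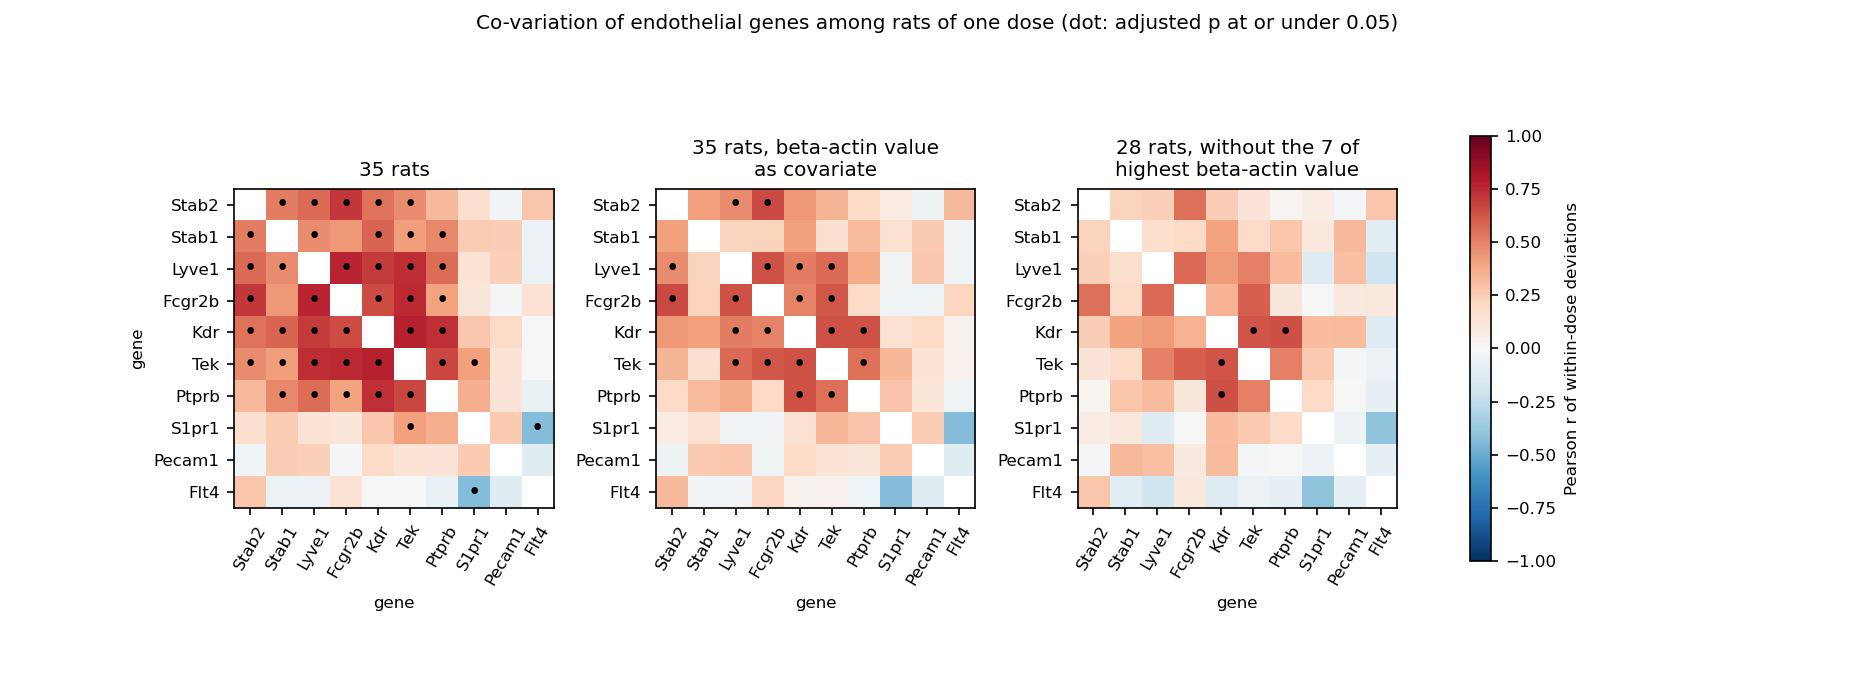
Pearson r (colour, from -1 in blue to 1 in red) of the within-dose deviations of each pair of the 10 endothelial genes (both axes), over 35 rats, over 35 rats with the beta-actin value as a covariate, and over 28 rats without the 7 of highest beta-actin value. Dots mark pairs with an adjusted p at or under 0.05, of which there are 21, 10 and 2.

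Within single groups of 6 rats Kdr and Tek had an r of 0.37 in vehicle, 0.74 at 0.07 mg/kg, 0.91 at 0.69, 0.93 at 6.88 and 0.79 at 680 mg/kg. The sign was positive in each of these 5 groups, and no r is given for the 5 rats at 68 mg/kg. The exact permutation p was 0.497 in vehicle and 0.00694 at 6.88 mg/kg, or 0.0521 for the latter after adjustment over the 15 values of 3 pairs in 5 groups. Fcgr2b and Lyve1 had an r of -0.21 in vehicle, 0.86 at 0.07 mg/kg, 0.96 at 0.69, 0.78 at 6.88 and 0.29 at 680 mg/kg. Stab2 and Fcgr2b had an r of -0.28 in vehicle, 0.91 at 0.07 mg/kg, 0.91 at 0.69, 0.54 at 6.88 and 0.80 at 680 mg/kg. Kdr and Tek were taken as the pair with the highest r of the 45 over all rats, and both other pairs are among the 6 highest. The same rats gave those values, so the r and p within groups are no separate support. The adjustment does not cover that choice. Whether the dosed and vehicle groups differ in these correlations was not tested.

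A few rats were low in many of the genes. At 0.69 mg/kg replicate 5 had the lowest value of its group in 8 of the 10 genes, at 6.88 mg/kg replicate 2 in 7, at 0.07 mg/kg replicate 1 in 6, and at 680 mg/kg replicate 2 in 5. Their beta-actin differences were 1.27, 1.37, 1.28 and 1.19. The first 3 of these rats are among the 7 of highest beta-actin value. At 68 mg/kg replicate 5 had the lowest value in 4 genes, at a beta-actin difference of 1.10.

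The beta-actin difference moved with the same genes. Over 35 rats its within-dose r was -0.65 with Lyve1, -0.62 with Tek, -0.59 with Kdr, -0.54 with Fcgr2b, -0.50 with Stab1 and -0.47 with Ptprb, each with a permutation adjusted p of 0.0145 or less over 10 genes. Spearman's rho called the same 6 genes, and without the 2 rats of most extreme beta-actin difference r was -0.58 with Lyve1, -0.52 with Tek and -0.51 with Kdr. The r with Stab2 was -0.36 (permutation adjusted p = 0.0694). It was -0.25 with S1pr1, -0.05 with Pecam1 and 0.06 with Flt4, none of them called. The share of all probe sets that moved with the beta-actin difference is not given here. A link particular to the endothelial genes is therefore not shown. With the beta-actin difference as a covariate 10 pairs were called, all among the 21, and the median r was 0.22. Without the 7 arrays of highest beta-actin difference, which left 28 rats, 2 pairs were called: Kdr with Ptprb (r = 0.645) and Kdr with Tek (r = 0.632), both at a permutation adjusted p of 0.0466. The median r of all pairs was 0.19 there. Uncalled pairs included Fcgr2b with Tek (r = 0.595) and Fcgr2b with Lyve1 (r = 0.570). With fewer rats an r of the same size is less easily called, so the count alone does not show how far r fell.

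Leaving out those 7 rats also moved the dose means. At 0.07 mg/kg, where replicates 1 and 6 were left out, the differences became 0.0076 for Stab2 and 0.017 for Stab1, from -0.13 and -0.11. S1pr1 at 680 mg/kg was 0.29 against 0.31 with all rats. No 680 mg/kg rat was among the 7, so that value could move only through vehicle replicate 1, which was left out. The part of RNA integrity in the values of these genes was not tested beyond these settings.

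Whether dose separated sinusoidal from general vascular genes was not tested, and the class means are given as a description. The mean of the 5 sinusoidal genes, as a deviation from the mean of all rats in log2 units, was 0.06 in vehicle and -0.09, 0.02, -0.05, -0.06 and 0.11 from the lowest to the highest dose. The mean of the 5 vascular genes was 0.02 in vehicle and -0.05, 0.03, -0.04, -0.02 and 0.05. Their difference, sinusoidal minus vascular, ran per rat from -0.09 over 0.07 to 0.13 in vehicle and from -0.07 over 0.02 to 0.26 at 680 mg/kg. Every group overlapped vehicle in this difference, and no p is given since the genes were chosen for this description. The highest rat at 680 mg/kg was replicate 3, at 0.26, and the lowest of all was replicate 6 at 0.07 mg/kg, at -0.26. The vascular mean includes S1pr1, 0.31 above vehicle at 680 mg/kg, and the sinusoidal mean includes the dim Flt4. Gene by gene, 5, 4, 4, 5 and 0 of 5 sinusoidal genes were below vehicle from the lowest to the highest dose. The vascular counts were 4, 4, 4, 4 and 3 of 5, and the share of all probe sets at 680 mg/kg was 51.7%. At 680 mg/kg the median log2 difference was 0.05 for sinusoidal and -0.0046 for vascular genes.

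Within dose the sinusoidal and vascular means had an r of 0.61 over 35 rats. Pairs of 2 sinusoidal genes had a median r of 0.45, with 5 of 10 called, pairs of 2 vascular genes 0.32, with 4 of 10 called, and mixed pairs 0.25, with 12 of 25 called. Whether these medians differ was not tested. The sinusoidal mean had an r of 0.76 with the mean of the other sinusoidal genes and 0.67 with that of the other vascular genes, and the vascular mean 0.65 and 0.68. These means share each array's RNA quality and normalisation, and they are given with no p.

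Macrophage genes varied with the endothelial ones, and with the beta-actin difference: the within-dose r of that difference was -0.57 with the macrophage mean, -0.59 with the sinusoidal mean and -0.56 with the vascular mean. The mean of 13 measured Kupffer and macrophage genes out of 17, of which 0 were dim, had a within-dose r of 0.51 with the sinusoidal mean, 0.71 with the vascular mean and 0.66 with the mean of all 10 genes. By dose, 13, 13, 12, 13 and 13 of these 13 genes were below vehicle, by a median of -0.19, -0.09, -0.11, -0.31 and -0.11. Over all probe sets the share below vehicle was 50.5%, 51.3%, 51.3%, 51.1% and 51.7%. The 5 comparisons share their vehicle rats, so a like direction at several doses is not separate evidence. The 13 genes were read in the same rats and belong to 1 cell type, so they are not 13 separate observations. limma called 0 of them, and 1 of the 13 genes had an unadjusted p under 0.05, at 68 mg/kg, against 3.88% of all probe sets there. The macrophage mean ran from -0.30 to 0.38 in vehicle, -0.37 to 0.28 at 0.07 mg/kg, -0.61 to 0.56 at 0.69, -0.36 to 0.54 at 6.88, -0.66 to 0.24 at 68 and -0.26 to 0.23 at 680 mg/kg. Its lowest rat, replicate 5 at 68 mg/kg, was the rat with the lowest Fcgr2b of that group. Fcgr2b is also expressed by macrophages and B cells. The part of these cells in the values of the 10 genes was not tested.

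**Figure D4:**
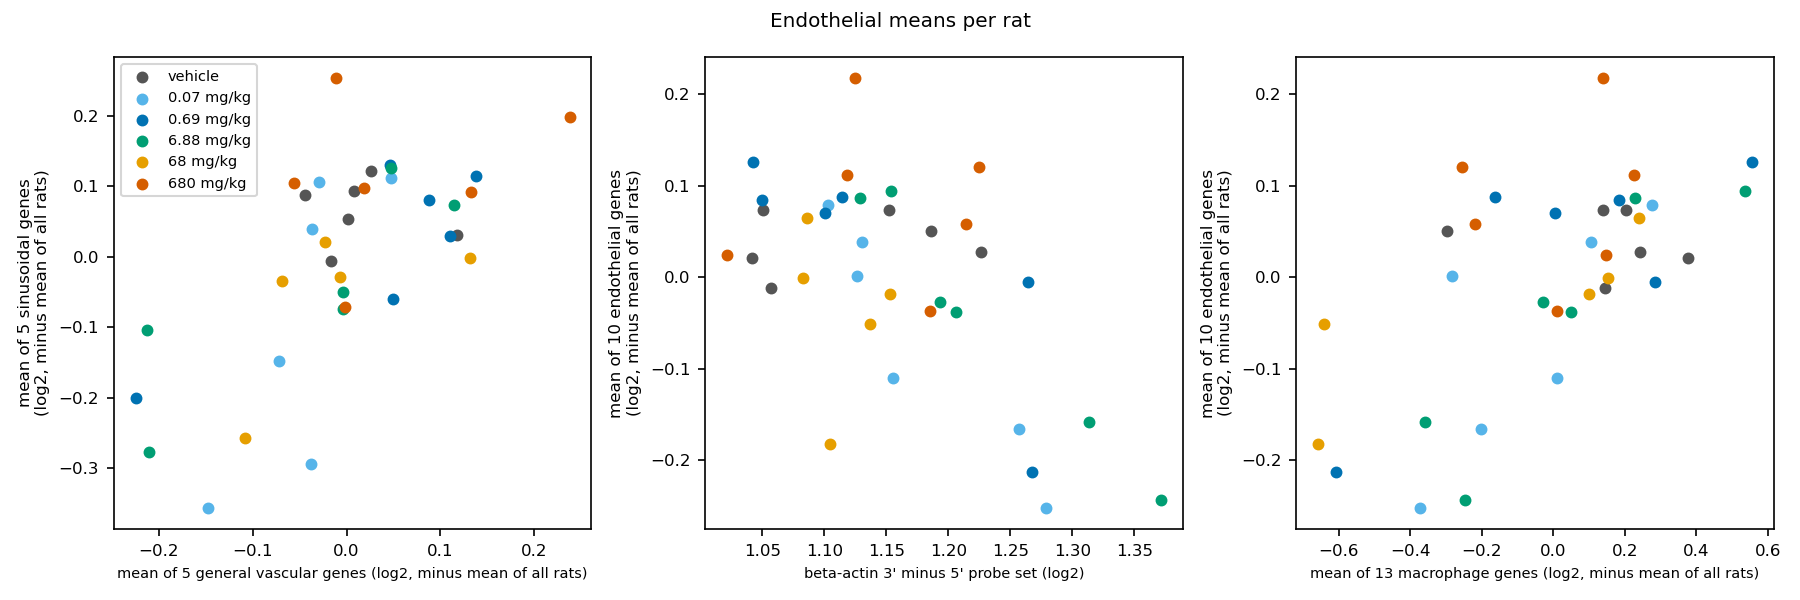
Per rat (points, coloured by dose, log2 units relative to the mean of all 35 rats), the mean of the 5 sinusoidal genes against that of the 5 vascular genes, and the mean of all 10 genes against the beta-actin 3′ minus 5′ difference and against the mean of 13 macrophage genes. The low sinusoidal rats, down to -0.36, lie mostly at low vascular means, at beta-actin differences above 1.25 or at low macrophage means. Replicate 5 at 68 mg/kg is low at a beta-actin difference of 1.10.

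Rat-to-rat spread within dose was above that of most probe sets of like level for all of the genes except Pecam1 and Flt4. The within-dose SD of Fcgr2b was 0.267, higher than in 94.4% of the probe sets within 0.5 of its level, and that of Stab2 was 0.168, higher than in 83.1%. Stab1, Lyve1, S1pr1, Kdr, Tek and Ptprb followed at 80.8%, 79.9%, 79.2%, 78.4%, 77.3% and 77.0%. Pecam1 was near the middle at 51.2%, and Flt4 was at 9.87%.

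Of 9676 other genes ranked by within-dose r with the sinusoidal mean over 35 rats, the nearest were Gatm, an enzyme of creatine synthesis (r = 0.837), Mrc1, the mannose receptor of sinusoidal endothelium and macrophages (0.829), Akr1c15, an aldo-keto reductase (0.810), the transcription factors Ets1 (0.809) and Maf (0.802), and the nuclease Dnase1l3 (0.799). Mrc1 and Dnase1l3 were on the list of other sinusoidal genes. Nearest to the vascular mean were the kinase gene Camk2d (0.823), Rnf145 (0.817), the cyclooxygenase gene Ptgs1 (0.797), Casp1 (0.796), the toll-like receptor gene Tlr8 (0.780) and Kctd12 (0.778). These values describe likeness over the same arrays that share the beta-actin and macrophage differences above.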

How the data were processed

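Each deposited column holds 1 array as log2 expression per probe set, made by the authors with RMA from the affy package, per the submitters' processing notes (no version given). The base of the logarithm follows RMA's convention. Of 31099 probe sets, 57 controls were dropped and 31042 tested, unfiltered and not normalised again. Platform annotation named 20826 of them with 1 symbol, 436 with several and 9780 with none, and the brightest probe set by mean stood for its gene. Quantile normalisation reduces a shift shared by most transcripts, and RMA compresses dim differences. Array number sets the precision.

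limma 3.58.1 in R 4.3.3 fitted 1 coefficient per group to 35 arrays, with a moderated test per dose, F test and trend over dose rank, each with Benjamini-Hochberg adjustment. R/maanova at a 5% false discovery rate, which the design text names, was not used here. Correlations were computed in Python 3.11.15 from deviations from dose means. Both steps were tested on simulated data. The labels name no batch.

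Named genes were the 10 endothelial genes, the 2 genes of each further endothelial or ligand list with the smallest F test p, and the 6 genes most like each class mean. Members and lists were chosen with earlier results of these data known. Listed genes that no 1-symbol probe set covered were not analysed here. Alternatives tried were dropping dim probe sets, other normalisations, a block for the replicate number, a robust prior with intensity trend, array weights, a fit of vehicle and 1 dose, an unmoderated analysis of variance, another dose scale, other probe sets, the beta-actin difference as a covariate, and leaving out groups, extreme rats or each rat. The covariate for the dose comparisons, leaving out the 7 arrays of highest beta-actin difference, and leave-one-out for the pair count were chosen after seeing the data.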

Additional observations from a re-analysis of the deposited data

Results flagged for a closer look

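In 5 of 60 groups of a gene and a dose, 1 rat lay farther from the others than Dixon's 95% limit allows, and chance alone gives about 1 in 20 groups. Stab1 was 5.89 in vehicle replicate 2, below the other vehicle rats at 6.10 to 6.14. Fcgr2b was 8.71 in replicate 5 at 68 mg/kg, below the others at 9.27 to 9.42, with a beta-actin difference of 1.10. Kdr was 9.04 in replicate 5 at 0.69 mg/kg, below the others at 9.35 to 9.50, with a beta-actin difference of 1.27. Pecam1 was 6.24 in replicate 5 at 680 mg/kg, above the others at 5.95 to 6.06. S1pr1 was 11.11 in replicate 6 at 0.07 mg/kg, above the others at 10.79 to 10.88, with a beta-actin difference of 1.26.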

How the results depend on the processing

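The count of probe sets called by limma stayed 0 at each dose under every alternative run. Of the alternatives, the F test was run only with the replicate block and with each rat left out. The trend was run with these and on the other dose scale, and the counts of both tests stayed 0. The smallest limma adjusted p of any of the 10 genes over 1905 tests was 0.575. The number of correlated pairs, 21 of 45, was 10 with the beta-actin covariate and 2 without the 7 arrays of highest beta-actin difference. It was 11 when each pair left out the 2 rats farthest from the median of its first-listed gene. Without the 0.07 mg/kg group it was 12 (10 shared), and after median centring it was 20. It was 14 to 23 when each rat was left out in turn, with 14 without replicate 2 at 6.88 mg/kg. The replicate number as a block gave 22 pairs (20 shared) and called 0 probe sets. Same-numbered rats of different doses had a median r of -0.017 against 0.0025 for other rats. No pairing by number was seen, though these values cannot exclude a weak one.

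Differences larger than their standard error changed sign in these cases, whose cause was not tested. With another probe set, Ptprb was 0.13 at 6.88 and 0.0060 at 680 mg/kg, and S1pr1 was -0.10, -0.081, -0.021, -0.11 and -0.13 from the lowest to the highest dose. With the beta-actin covariate, Stab1 at 6.88 mg/kg was 0.0058. Without the 7 arrays, Stab2 at 0.07 mg/kg was 0.0076, Stab1 was 0.017 at 0.07 and 0.037 at 6.88 mg/kg, Pecam1 at 6.88 mg/kg was 0.011, and the r of Pecam1 and S1pr1 was -0.052. The r of Stab1 and S1pr1 was -0.081 without the 6.88 mg/kg group.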

Other observations

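Markers of other liver cell types were read in the same way, and limma called 0 of them at any dose. At an unadjusted p under 0.05 there was 1 stellate gene at 0.69 mg/kg, 1 cholangiocyte gene at each of 68 and 680 mg/kg and 1 blood gene at 68 mg/kg. Over all probe sets that share was 3.16% at 0.69, 3.88% at 68 and 4.95% at 680 mg/kg. The share of all probe sets below vehicle was 50.5%, 51.3%, 51.3%, 51.1% and 51.7% from the lowest to the highest dose. Of 15 measured stellate and fibroblast genes, 9, 9, 7, 6 and 9 were below vehicle from the lowest to the highest dose, and their mean had a within-dose r of 0.04 with the sinusoidal mean and 0.25 with the vascular mean. Of 12 hepatocyte genes, 5, 2, 3, 9 and 6 were below vehicle, with r of -0.40 and -0.34. Of 13 lymphocyte genes, 10 of them dim, 10, 6, 9, 9 and 10 were below vehicle, with r of 0.44 and 0.57. Of 6 cholangiocyte genes, 3, 4, 4, 4 and 4 were below vehicle, with r of 0.12 and 0.05, and of 7 blood genes, 3, 0, 3, 5 and 4, with r of -0.12 and -0.08. The ligands and enzymes of the endothelial receptors had an r of -0.04 with the sinusoidal and -0.0017 with the vascular mean.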
